A study of Saccharomyces cerevisiae with 11 samples.

Results

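The 10 genes described here are the 9 cyclins of the yeast cell-division cycle (CLN1, CLN2 and CLN3, and CLB1 to CLB6) and CDC28, the kinase that they bind. They were picked by their open reading frame identifiers out of 6668 coding sequences, and the rule uses no measured value. All libraries were made from BY4743, a wild-type diploid of Saccharomyces cerevisiae in the S288C background that is homozygous for his3Δ1, leu2Δ0 and ura3Δ0 and carries 1 copy each of lys2Δ0 and met15Δ0. Young cells were the unlabelled cells of a culture grown for 13 h at 25 °C after the walls of the founding cells had been biotinylated, and Middle cells were the biotinylated mothers recovered from that culture on magnetic streptavidin beads. Aged cells were such mothers held by a magnet for a further 24 h in a vessel with flowing medium, the MAD, from which unlabelled daughters are washed out. Fresh medium and magnet time in the vessel are therefore shared by all Aged libraries and cannot be told apart from age. Biotin label, bead capture and being a mother are likewise shared by all Middle and Aged libraries and by no Young library. Against Young cells they cannot be told apart from age either. The paper gives only a lower bound for the purity of Aged cells. Each age has 2 RNA-Seq libraries. Ribosome profiling, which sequences the mRNA stretches protected by ribosomes (footprints), has 1 library for Aged cells and 2 for the other ages.

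Cyclins are synthesized and destroyed in a fixed order through each division, and each form directs the kinase Cdc28 to a different step. Cln3 starts the passage out of G1 by relieving the repressor Whi5 from the transcription factor SBF, after which Cln1 and Cln2 drive bud emergence, Clb5 and Clb6 fire replication origins, Clb3 and Clb4 help to build the spindle, and Clb1 and Clb2 carry the cell through mitosis. Transcription of most cyclin genes is periodic, whereas CDC28 mRNA is nearly constant through the cycle, so in an unsynchronized population the mRNA level of a cyclin depends both on how many cells are in its phase and on how much each of them makes. In these bulk libraries the 2 contributions cannot be told apart.

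The RNA-Seq libraries held 476704 to 2585717 counts and the footprint libraries 168247 to 965156. Levels are given as CPM, counts relative to the library total after TMM scaling (trimmed mean of M-values) within each assay, and 3 counts, taken as the floor of detection, correspond to 1.10 to 7.15 CPM in RNA-Seq and to 3.18 to 18.7 CPM in footprints. Duplicates of every group differed by more than sampling noise, with a chi-square of 7.53 to 29.0 per degree of freedom over the genes. The study's methods name the Young and Middle pairs biological replicates, while the labels do not say that the libraries of a group came from separate cultures, so p-values measure the spread between these libraries. The 3 RNA comparisons share libraries with each other, as do those of footprints and of translational efficiency.

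The cyclin genes are related in sequence, and how far short reads can tell them apart was looked up first. The coding sequences of CLB1 (YGR108W, chrVII:703636-705051, plus strand, R64) and CLB2 (YPR119W, chrXVI:771653-773128, plus) have 67.4% identical bases in a global alignment, against 64.9% for CLN1 (YMR199W, chrXIII:662644-664284, plus) and CLN2 (YPL256C, chrXVI:64977-66614, minus), 61.5% for CLB5 (YPR120C, chrXVI:773875-775182, minus) and CLB6 (YGR109C, chrVII:705359-706501, minus), and 60.7% for CLB3 (YDL155W, chrIV:176773-178056, plus) and CLB4 (YLR210W, chrXII:562008-563390, plus). The longest run of identical bases within any of these 4 pairs is 17, and no stretch of 28 bases of any of the 10 genes occurs elsewhere in the genome. Of stretches of 21 bases, 5 of CLN2, 11 of CLB5 and 1 of CLB6 do. The 2 runs of 17 bases are shown because they are the longest that the paralogs share in these alignments.
CLN1 and CLN2, in CLN1 at chrXIII:663178-663194: caaatggaaagacatat
CLB1 and CLB2, in CLB1 at chrVII:704566-704582: gagacagacggtgcatg
None of the 10 genes, each a single exon, overlaps another annotated gene. CLB1 and CLB6 face each other with 307 bases between them, and CLB2 and CLB5 likewise with 746 bases, so the gene pair of a mitotic and an S-phase cyclin stands at 2 places in the genome.

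The sites at which the known regulators of these genes bind were searched on both strands in the 800 bases before each start codon, a window chosen to cover the long upstream regions of the CLN genes. SBF recognizes the SCB letters CACGAAA, present in 10.7% of 5983 such windows and in those of CLN1 and CLN2. MBF recognizes the MCB letters ACGCGT, present in 7.64% of windows and in those of CLN1 and CLB6. The forkhead factors that act with Mcm1 on mitotic genes recognize GTAAACAA, present in 6.57% of windows and in those of CLN1, CLB1 and CLB6. The early cell cycle box, bound by Mcm1 in early G1 and searched as TTNCC and GGNAA with 6 bases between them, was in 2.87% of windows and in that of CLN2. The matches in CLN2, the MCB matches in CLB6 and the forkhead match in CLB1 are printed 5′ to 3′ on the strand of the gene, chosen to show each kind of site, with the matching letters in capitals, and the matches in CLN2 do not overlap.
CLN2, early cell cycle box, chrXVI:67218-67247: ctccatcTTTCCGAAAACGGAAAtcatcgc
CLN2, SCB, chrXVI:67178-67206: caacggaagtaCACGAAAttcgtcccgct
CLN2, SCB, chrXVI:67135-67163: cgtgttctagtCACGAAAcgcgccaaaaa
CLB6, MCB, chrVII:706887-706916: aatagcagttttACGCGTaccacaaaattt
CLB6, MCB, chrVII:706861-706890: atttaacgaccaACGCGTattcttcgcgtt
CLB1, forkhead letters read from the opposite strand, chrVII:702996-703025: ggcacgaccttTTGTTTACaaccgcccaaa
These are matches of letters in the reference genome, and no binding was measured here.

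CLN3 (YAL040C, chrI:65778-67520, minus) is known for a short reading frame in its mRNA leader that lowers its translation when growth is slow. In the 400 bases before the CLN3 start codon the reference holds 1 ATG with a stop codon in its frame before the coding sequence, 315 bases upstream. It has 3 codons before the stop, whose letters are in capitals together with the start.
CLN3 upstream reading frame, chrI:67824-67835, minus: ATGgatttcTGA
The deposited counts begin inside the coding sequence and do not cover this frame.

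Among Young cells, CLN3, CLB3 and CDC28 had the most RNA for their length and the S-phase cyclins the least. Per kilobase of coding sequence, RNA averaged 70.5 ± 46.1 CPM for CLN3, 65.5 ± 3.83 CPM for CLB3 and 60.6 ± 17.8 CPM for CDC28 (SD, n = 2 each). CLB4 followed with 30.8 ± 1.28 CPM per kilobase. CLN1 with 24.7, CLB1 with 24.1, CLB2 with 24.0, CLN2 with 16.2, CLB5 with 10.9 and CLB6 with 10.2 CPM per kilobase came after it. The ranges of the 2 Young libraries did not overlap between CDC28 and CLB4 or between CLB4 and CLN1, and every other neighbour in this order overlapped the next.

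In RNA-Seq CLB1 and CLB2 were lower in both Middle libraries than in any library of the other ages. All 9 members that passed the filter on low counts had a negative fold change in Middle against Young cells, and none passed an adjusted p of 0.05 in edgeR's quasi-likelihood test, against 2.97% of the 5818 genes tested. Their median log2 fold change was -0.77, beside -0.02 for all genes. CLN2, CLB1, CLB2 and CLB5 had both libraries at the filter only in Young cells, so a fall was the direction open to them. At an unadjusted p under 0.05 the count was 4 (CLN2, CLB1, CLB2 and CLB4), and DESeq2 called 0. In 6 of the 9 both Middle libraries were below both Young libraries, where 29.0% of all genes tested show the same. Between Aged and Middle cells 1 member, CLB1, was called higher, against 4.76% of 5674 genes, and the median over the 9 was 0.78 beside 0.01 for all genes. Both Aged libraries were above both Middle libraries in 5 of the 9, against 28.4% of all genes. In this comparison CLN2, CLB1, CLB2 and CLB5 had both libraries at the filter only in Aged cells. A rise was thus the direction open to them. Between Aged and Young cells 0 of 9 members were called, against 13.0% of 5897 genes, with 1 at an unadjusted p under 0.05 (CLB4) and 0 called by DESeq2. Without Young RNA library 2, edgeR called no gene in this comparison, with 1472 genes at an unadjusted p under 0.05, so every call in Aged against Young RNA was lost in that fit. Both Aged libraries were above both Young libraries for CLB1 and CLB5, 2 of the 9, where 29.8% of all genes show the same, and below both for CLB4, 1 of the 9, against 28.6%.

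**Figure D1:**
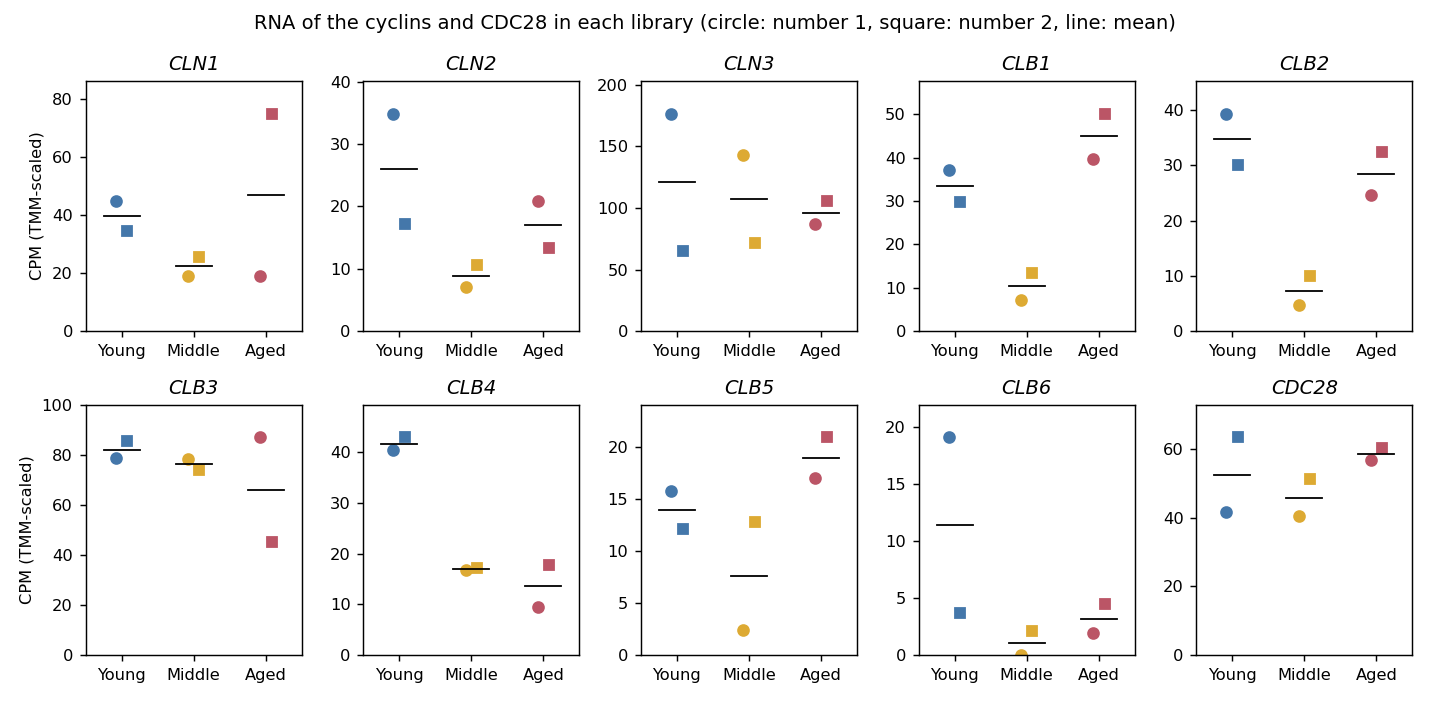
RNA level (TMM-scaled CPM, linear axis that differs between panels) of each of the 10 genes in the 6 RNA-Seq libraries, with circles and squares for library numbers 1 and 2 and a line at the mean of each age. CLB1 and CLB2 were lowest in both Middle libraries, CLB4 was low in Middle and Aged libraries, and the ages overlapped for CLN3.

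Clb1 and Clb2, the B-type cyclins that take cells into mitosis and must be destroyed before they leave it, gave the largest differences. CLB1 had 37.1 and 29.7 CPM in Young, 7.15 and 13.5 CPM in Middle, and 39.8 and 50.1 CPM in Aged libraries, which rest on 33 and 81, 3 and 19, and 21 and 79 counts. Both Aged libraries were above both Middle libraries, and Middle lay below Young without overlap. In Aged against Middle cells only the Aged libraries both reached the filter on low counts, so a rise was the direction open to CLB1. In Middle against Young cells only the Young libraries both reached it, so a fall was. CLB1 RNA was higher in Aged than in Middle cells, 45.0 ± 7.33 against 10.3 ± 4.50 CPM (SD, n = 2 each), a log2 fold change of 2.00 with an SE of 0.49 (edgeR adjusted p = 0.043). In Middle against Young cells the log2 fold change was -1.54 with an SE of 0.51 (edgeR adjusted p = 0.12), and in Aged against Young cells it was 0.46 (edgeR adjusted p = 0.51).
The call of CLB1 held when Aged library 1 was left out (log2 fold change 2.11, edgeR adjusted p = 0.040) and was lost without Aged library 2 (1.82, adjusted p = 0.28), without Middle library 1 (1.74, adjusted p = 0.17) or without Middle library 2 (2.65, adjusted p = 0.12), where the group left with 1 library is assumed to vary like the other. DESeq2 gave 2.03 with an adjusted p of 0.063. With no filter on low counts edgeR called CLB1 as well.

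CLB2, which carries most of the mitotic cyclin activity of the cell, had 39.4 and 30.1 CPM in Young, 4.77 and 9.96 CPM in Middle, and 24.6 and 32.4 CPM in Aged libraries, from 35 and 82, 2 and 14, and 13 and 51 counts. Middle libraries were below those of both other ages, and Aged and Young libraries overlapped. In each comparison with Middle cells only the other age had both libraries at the filter on low counts. Lower in Middle cells was thus the direction open to CLB2. Its log2 fold change in Middle against Young cells, -2.04 with an SE of 0.54, was the largest of the 9 and did not pass the adjustment over all genes (edgeR adjusted p = 0.069), although a fit of the 3 ages together did (adjusted p = 0.044). In Aged against Middle cells it was 1.81 with an SE of 0.56 (edgeR adjusted p = 0.088). Over the 6 RNA-Seq libraries CLB1 and CLB2 were the pair of members with the most alike profiles, with a root-mean-square difference of 0.29 between their centred log2 CPM.

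**Figure D2:**
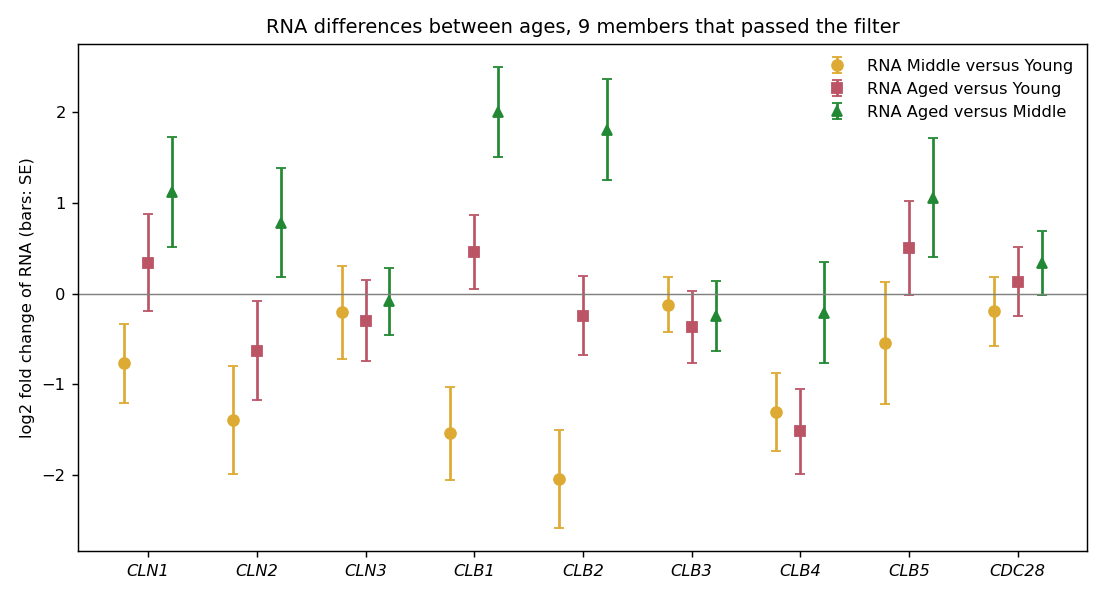
Log2 fold change of RNA with its SE (edgeR) for the 9 members that passed the filter, with circles for Middle against Young, squares for Aged against Young and triangles for Aged against Middle cells. CLB1 at 2.00 in Aged against Middle cells is the one point past an adjusted p of 0.05, and CLB4 at -1.52 has the lowest value in Aged against Young cells.

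CLB3 and CLB4, the cyclins that act from S phase in spindle formation, did not share a pattern. CLB4 had 40.5 and 42.9 CPM in Young, 16.7 and 17.1 CPM in Middle, and 9.47 and 17.8 CPM in Aged libraries, from 36 and 117, 7 and 24, and 5 and 28 counts. Every Middle and Aged library was below both Young libraries, and Aged overlapped Middle. The log2 fold change was -1.30 with an SE of 0.43 in Middle against Young cells (edgeR adjusted p = 0.11) and -1.52 with an SE of 0.47 in Aged against Young cells (edgeR adjusted p = 0.055). The second value passed the threshold in a fit of the 3 ages together (adjusted p = 0.045).
CLB3, in contrast to its paralog, had 78.7 and 85.5 CPM in Young, 78.7 and 74.0 CPM in Middle, and 87.1 and 45.1 CPM in Aged libraries. Its Young and Middle libraries lay within a narrow range and the 2 Aged libraries on either side of it, and its log2 fold changes were -0.12 in Middle and -0.37 in Aged against Young cells (edgeR adjusted p = 0.84 and 0.59). The difference between CLB3 and CLB4 was not itself tested.

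Clb5 and Clb6 activate replication origins, and in Young cells their mRNAs had the lowest mean levels per kilobase of the set. CLB5 had 15.7 and 12.1 CPM in Young, 2.38 and 12.8 CPM in Middle, and 17.1 and 20.9 CPM in Aged libraries, and Middle library 1 rests on 1 count. Aged libraries were above all the others, with a log2 fold change of 0.50 against Young (edgeR adjusted p = 0.57) and 1.05 against Middle cells (edgeR adjusted p = 0.35). CLB6 had 17 and 10 counts in Young, 0 and 3 in Middle, and 1 and 7 in Aged libraries, and passed the filter in none of the 3 RNA comparisons. Young library 1 at 19.1 CPM stood apart from the other 5 libraries, which were at 4.44 CPM or less, so no fold change is given for it.

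Among the G1 cyclins, CLN1 and CLN2 were lower in both Middle libraries than in Young libraries, whereas CLN3 overlapped between all ages. CLN2, a main target of SBF, had 34.9 and 17.2 CPM in Young, 7.15 and 10.7 CPM in Middle, and 20.8 and 13.3 CPM in Aged libraries, the lowest from 3 counts. Its log2 fold change in Middle against Young cells was -1.39 with an SE of 0.60 (edgeR adjusted p = 0.20) and in Aged against Middle cells 0.78 (edgeR adjusted p = 0.45).
CLN1, its paralog, had 45.0 and 34.5 CPM in Young, 19.1 and 25.6 CPM in Middle, and 18.9 and 74.9 CPM in Aged libraries. Aged library 1 was below and Aged library 2 above every library of the other ages. Without Aged library 1 the log2 fold change of Aged against Middle cells was 1.67 (edgeR adjusted p = 0.046), beside 1.12 with all libraries (adjusted p = 0.28) and -0.26 without Aged library 2 (adjusted p = 0.90).
CLN3, the upstream activator of the G1 programme, had 176.5 and 65.0 CPM in Young, 143.1 and 71.8 CPM in Middle, and 87.1 and 105.4 CPM in Aged libraries. Library 1 was 2.72 times library 2 in Young and 1.99 times in Middle cells, and the log2 fold changes of -0.21 in Middle and -0.30 in Aged against Young cells were within that spread (edgeR adjusted p = 0.84 and 0.71).

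CDC28 (YBR160W, chrII:560078-560974, plus), the kinase subunit common to all 9 cyclins, had 41.6 and 63.5 CPM in Young, 40.5 and 51.2 CPM in Middle, and 56.8 and 60.3 CPM in Aged libraries. All ages overlapped except Aged and Middle. The log2 fold change was -0.20 with an SE of 0.38 in Middle and 0.13 with an SE of 0.38 in Aged against Young cells (edgeR adjusted p = 0.80 and 0.85), and 0.34 in Aged against Middle cells (edgeR adjusted p = 0.59).

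The genes with the profiles most like 3 of the members were looked up over the 6 RNA-Seq libraries among 5841 genes with a mean of at least 10 counts, by the root-mean-square difference of centred log2 CPM. For CLN2 they were PLM2 (0.13), a protein with a forkhead-associated domain, LCB3 (0.15), a phosphatase of sphingolipid metabolism, and YDR098C-B (0.16). For CLB2 they were NEW1 (0.20), RPA190 (0.20), the largest subunit of RNA polymerase I, and ESF1 (0.23), a ribosome biogenesis factor. For CDC28 they were CBS1 (0.076), an activator of mitochondrial translation, TAF13 (0.078), a TFIID subunit, and KTR7 (0.084), a mannosyltransferase. The distances of CLB2 to its nearest genes were larger than those of CDC28 and smaller than its distance of 0.29 to CLB1.

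Footprints allowed a test of 3 members, CLN3, CLB3 and CDC28. The other 7 did not pass the filter on low counts and had at most 17 counts in any footprint library. None of the 3 was called in Middle against Young cells (edgeR, against 6.89% of 4167 genes, with 1 at an unadjusted p under 0.05 and 0 called by DESeq2) or in Aged against Young cells (against 8.85% of 4635 genes, with 1 at an unadjusted p under 0.05 and 0 called by DESeq2). In Middle cells 1 of the 3 lay below both Young libraries, where 27.7% of all genes do, and 2 lay above both, where 29.1% do. The Aged library lay below both Young libraries for 1 of the 3 and above both for 2, against 37.5% and 40.8% of all genes. This comparison rests on 1 Aged library, which is assumed to vary like the Young and Middle pairs.
CLN3 footprints were at 25.0 and 52.1 CPM in Middle and 42.5 CPM in Aged cells, against 81.9 and 127.4 CPM in Young cells, from 4 and 27, 40, and 28 and 73 counts. Each Middle and Aged value was below both Young values. The log2 fold change was -1.33 with an SE of 0.48 in Middle (edgeR adjusted p = 0.12) and -1.35 with an SE of 0.54 in Aged against Young cells (edgeR adjusted p = 0.14). Without Young footprint library 1 both passed the threshold, at -1.59 (edgeR adjusted p = 0.028) in Middle and -1.64 (adjusted p = 0.043) in Aged cells. Over the 4 fits with a library left out the values ranged from -2.09 to -0.92 in Middle (adjusted p up to 0.34) and from -1.64 to -1.02 in Aged cells (adjusted p up to 0.28), and 1 of the 4 passed in each.
CDC28 footprints were at 74.9 and 67.6 CPM in Middle and 80.7 CPM in Aged cells, against 26.3 and 62.8 CPM in Young cells. The Young libraries were the lower ones and the further apart, and the log2 fold changes of 0.57 in Middle and 0.76 in Aged cells did not pass the test (edgeR adjusted p = 0.53 and 0.40). CLB3 footprints were at 56.2 and 56.0 CPM in Middle and 69.0 CPM in Aged cells, against 43.9 and 54.1 CPM in Young cells, with log2 fold changes of 0.16 and 0.45 (edgeR adjusted p = 0.87 and 0.61).

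**Figure D3:**
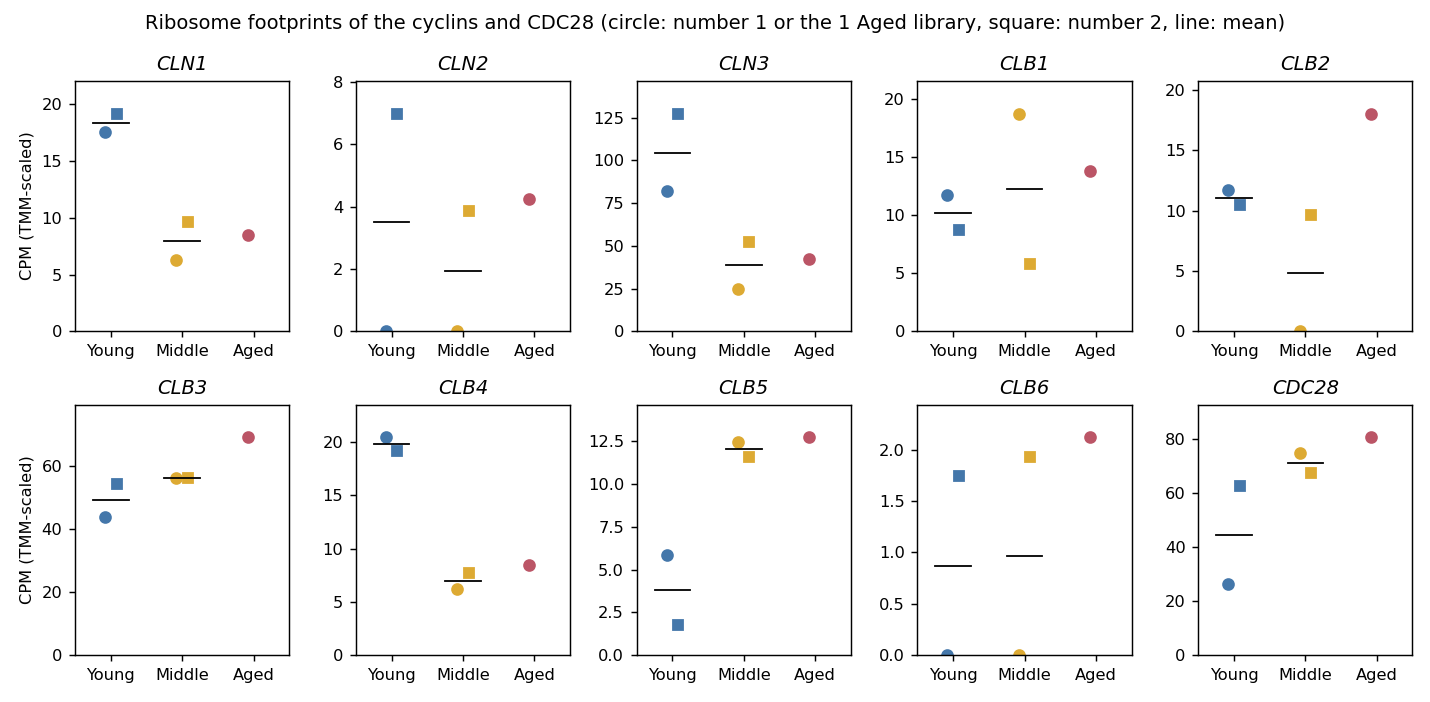
Ribosome footprints (TMM-scaled CPM, linear axis that differs between panels) of each of the 10 genes in the 5 footprint libraries, with circles and squares for library numbers 1 and 2, a circle for the 1 Aged library and a line at the mean of 2 libraries. CLN3 was at 25.0 to 52.1 CPM in Middle and Aged libraries and at 81.9 and 127.4 CPM in Young libraries, while the 7 genes that were not tested had at most 17 counts in any library.

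The footprints of the other members, which passed the filter on low counts in neither comparison, are given as counts and CPM only. CLB4 had 1 and 4 counts in Middle, 8 in Aged, and 7 and 11 in Young libraries, or 6.24 and 7.72, 8.49, and 20.5 and 19.2 CPM. CLN1 had 1 and 5 counts in Middle, 8 in Aged, and 6 and 11 in Young libraries, or 6.24 and 9.66, 8.49, and 17.5 and 19.2 CPM. Both had their higher levels in the 2 Young libraries, and Middle library 1 was below its floor of 18.7 CPM for each. CLB2 had 0 and 5 counts in Middle, 17 in Aged, and 4 and 6 in Young libraries, or 0 and 9.66, 18.0, and 11.7 and 10.5 CPM. CLB1 had 3 and 3, 13, and 4 and 5 counts, or 18.7 and 5.79, 13.8, and 11.7 and 8.72 CPM. The Aged library was the deepest of the 5, with 965156 counts, so its raw counts run high. CLB5 had 2 and 6 counts in Middle, 12 in Aged, and 2 and 1 in Young libraries, or 12.5 and 11.6, 12.7, and 5.85 and 1.74 CPM. CLN2 had at most 4 counts and CLB6 at most 2 in any footprint library, and no fold change is given for any of these 7 genes.

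Translational efficiency, the footprints of a gene relative to its RNA, was compared by the interaction of age and assay in a fit of both kinds of library. In simulated counts this test recovered 34 of 200 changes of 4-fold in Middle and 25 of 200 in Aged cells. The changes were set only in genes above a minimum mean count over both assays, with the same spread for all genes. Recovery at the low footprint counts of most members was not simulated separately. An uncalled gene is therefore not shown to be unchanged. No gene was called in Middle against Young cells, 0% of 5334, with 169 genes and none of the 7 members tested at an unadjusted p under 0.05, while DESeq2 called 0 genes higher and 19 lower, none of them a member. With each numbered lysate as a block edgeR called 8 genes higher and 47 lower, again no member. In Aged against Young cells no gene was called either, 0% of 6028, with 273 genes and none of the 10 members at an unadjusted p under 0.05, and DESeq2 called 1 higher and 21 lower, no member among them. With the lysate as a block and the Aged footprints paired with Aged RNA library 1, a number that the study's supplement gives and the labels do not, edgeR called 13 genes higher and 39 lower, no member among them.
Of the 10 members tested in Aged cells CLN1 had the most negative interaction, -1.39 with an SE of 1.03, and 8 were positive. CLN3 had the most negative interaction of the 7 members tested in Middle cells, where 4 were positive. In libraries of the same age and number it had footprint CPM per RNA CPM of 0.174 and 0.726 in Middle and 0.464 and 1.96 in Young cells, and 0.441 in Aged cells over the mean of the 2 RNA libraries. Number 1 was below number 2 in both Young and Middle cells, and Middle was below Young within each number, with a log2 interaction of -1.05 and an SE of 0.78 (edgeR adjusted p = 1.0). With the lysate as a block it was -1.07 with an SE of 0.47 (edgeR adjusted p = 0.41). In Aged cells the interaction was -0.96 with an SE of 0.75 (edgeR adjusted p = 1.0), and -1.01 with an SE of 0.55 when the Aged footprints were paired with Aged RNA library 1 (adjusted p = 0.70), over which the ratio was 0.487.
CDC28 had 1.85 and 1.32 in Middle and 1.38 in Aged cells, against 0.633 and 0.989 in Young cells, and CLB3 had 0.714 and 0.757 in Middle and 1.04 in Aged cells, against 0.557 and 0.632 in Young cells. Middle and Aged ratios were above both Young ratios for each, and the log2 interactions in Middle cells, 0.82 with an SE of 0.62 for CDC28 and 0.34 with an SE of 0.48 for CLB3, did not pass the test (edgeR adjusted p = 1.0 each). The share of all genes with ratios apart in this way was not counted, so it is not read as a trait of these genes.

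**Figure D4:**
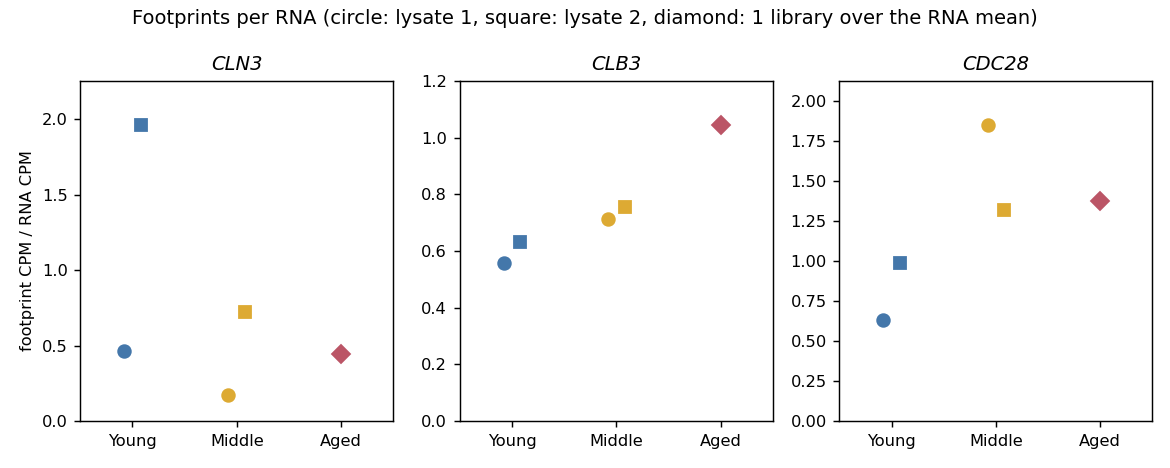
Footprint CPM divided by RNA CPM (linear axis from 0, differing between panels) of the 3 members with footprints enough for a test, by age, with circles and squares for numbers 1 and 2 and a diamond for the Aged footprint library over the mean of the 2 Aged RNA libraries. CLN3 was at 1.96 in Young number 2 and between 0.174 and 0.726 in the others, and the Middle and Aged ratios of CDC28 were between 1.32 and 1.85.

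CLB2 is transcribed at the G2/M transition together with a cluster of genes for mitosis and cytokinesis, of which 12 were listed. RNA of 4 of the 12 fell in Middle against Young cells (MYO1, BUD4, HOF1 and CDC5; edgeR, against 0.859% of all genes) and none rose. All 12 had negative fold changes, with a median log2 fold change of -1.66 beside -0.02 for all genes. MYO1, the myosin of the cytokinetic ring, had 35.8 and 42.7 CPM in Middle and 127 and 202 CPM in Aged libraries, against 337 and 235 CPM in Young libraries. Its Middle libraries were the lowest of the 3 ages without overlap, with log2 fold changes of -2.84 in Middle against Young cells (edgeR adjusted p = 0.013) and 2.06 in Aged against Middle cells (edgeR adjusted p = 0.0075). BUD4, a bud-neck protein of axial budding, had a log2 fold change of -2.35 (edgeR adjusted p = 0.030) and HOF1, a regulator of cytokinesis, of -2.04 (edgeR adjusted p = 0.039) in Middle against Young cells.
In Aged against Middle cells 4 of the 12 rose (MYO1, KIN3, CDC5 and IQG1; edgeR, against 4.76%) and none fell, with a median of 1.33, and in Aged against Young cells 1 of 12 fell, BUD4 by 1.11 (edgeR adjusted p = 0.046, against 4.93%). That count was 0 in each of the 4 fits with a library left out, with library totals and with DESeq2. The number that fell in Middle cells was 10 without Young RNA library 2, and the number that rose in Aged against Middle cells was 0 to 2 with any 1 library left out.
In footprints 5 of 8 tested genes of the cluster fell in Middle against Young cells (BUD4, CHS2, MYO1, SWI5 and IQG1; edgeR, against 4.15%). CDC5, the polo kinase, KIN3, a mitotic kinase, and IQG1, a protein of the cytokinetic ring, are named here after their values were seen. CHS2, the chitin synthase of the primary septum, had 1 and 9 footprint counts in Middle and 84 in Aged libraries, against 56 and 58 in Young libraries, BUD4 had 0 and 3, 38, and 35 and 33, and the transcription factor gene SWI5 had 1 and 0, 31, and 17 and 14 (edgeR adjusted p = 0.015, 0.015 and 0.042). These 3 genes had from 0 to 9 counts in Middle libraries and at least 14 in the libraries of the other ages. In CPM, CHS2 was at 89.2 in Aged against 164 and 101 in Young libraries. BUD4 was at 40.3 against 102 and 57.6, and SWI5 at 32.9 against 49.7 and 24.4. BUD4, CHS2, MYO1 and SWI5 reached the filter on low counts only in their Young libraries, so a fall was the direction open to them. Across the settings that keep all libraries, 0 to 7 cluster genes were called. Without Middle footprint library 2, 2 of the 8 were called, and without Young library 1 it was 3.

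**Figure D5:**
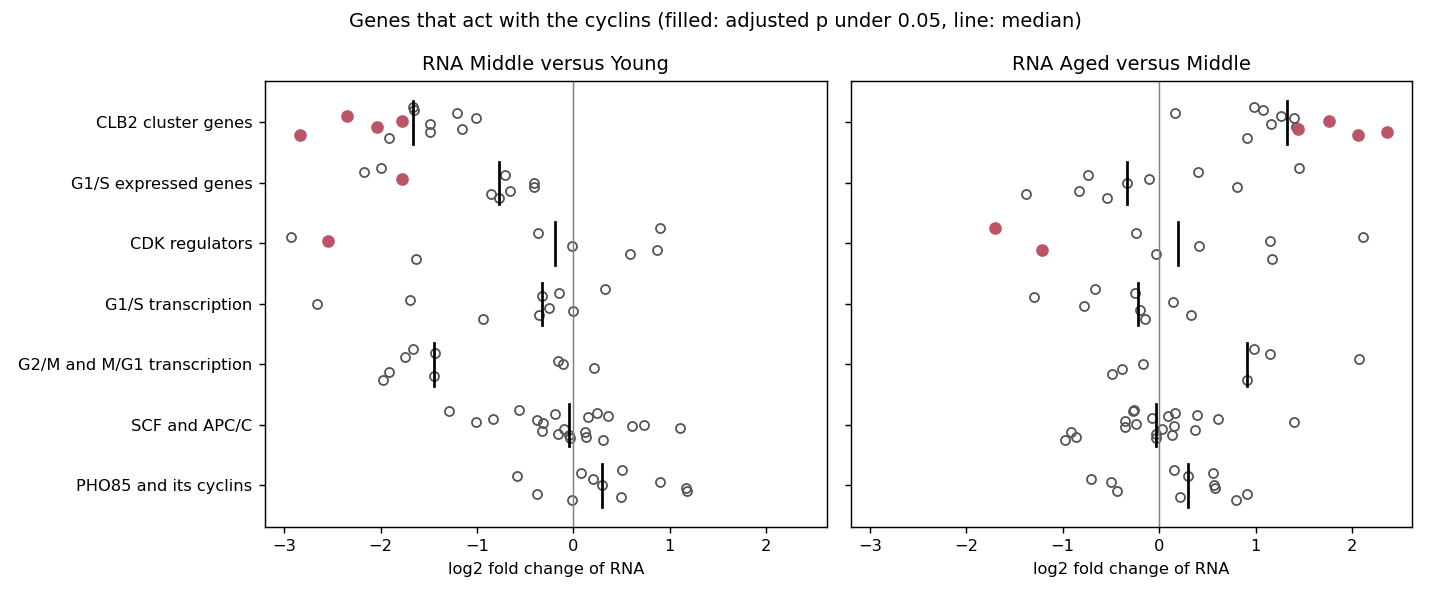
Log2 fold change of RNA (edgeR) in Middle against Young cells (left) and in Aged against Middle cells (right) of genes that act with the cyclins, 1 point per gene, with a line at the median of each list and filled points for an adjusted p under 0.05. The 12 genes of the CLB2 cluster had medians of -1.66 and 1.33, while the 21 genes of SCF and APC/C had medians of -0.04 and -0.03.

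Of 8 genes that regulate Cdc28 directly or through its inhibitor Swe1, 1 fell in Middle against Young cells (edgeR, against 0.859% of all genes). In Aged against Young cells 1 fell as well (against 4.93%). In both it was HSL1, a bud-neck kinase that promotes the removal of Swe1. HSL1 RNA was at 31.0 and 45.5 CPM in Middle and 77.7 and 96.5 CPM in Aged libraries, against 255 and 209 CPM in Young libraries, without overlap between any ages. The log2 fold change was -2.54 in Middle and -1.41 in Aged against Young cells (edgeR adjusted p = 0.015 each), and HSL1 had 1 and 1 footprint counts in Middle and 1 in Aged libraries, against 24 and 14 in Young libraries (edgeR adjusted p = 0.040). HSL1 footprints reached the filter on low counts only in the Young libraries, so a fall was the direction open to them. In Aged against Middle cells 2 of the 8 regulators fell (edgeR, against 170 of 5674 genes, 3%) and none rose. They were CAK1, the kinase that activates Cdc28, and MIH1, the phosphatase that opposes Swe1, named here after their values were seen.

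Of 9 regulators of G1/S transcription none was called in Middle and 2 fell in Aged against Young cells (edgeR, against 4.93% of all genes), with all 9 negative in Aged cells and a median of -1.04. NRM1, a co-repressor of MBF, had 6 and 8 counts in Aged and 1 and 14 in Middle libraries. Its Young libraries had 59 and 89. The log2 fold change of NRM1 in Aged against Young cells was -2.74 (edgeR adjusted p = 0.014). Only in Young cells did both of its libraries reach the filter on low counts, so a fall was the direction open to it. MSA1, an activator of G1 transcription, fell by 1.62 in Aged against Young cells (edgeR adjusted p = 0.038). Of 9 genes expressed at G1/S, 1 fell in Middle (against 0.859% of all genes) and 3 in Aged against Young cells (against 4.93%). POL1, the catalytic subunit of DNA polymerase α, was at 42.9 and 42.7 CPM in Middle and 32.2 and 45.1 CPM in Aged libraries, against 189 and 106 CPM in Young libraries, and fell in both comparisons (log2 fold change -1.78, edgeR adjusted p = 0.047, and -1.89, adjusted p = 0.012). In Aged against Young cells CDC45, a factor of the replicative helicase, had a log2 fold change of -1.78 (edgeR adjusted p = 0.035) and SVS1, a cell wall protein gene, of -2.23 (edgeR adjusted p = 0.025).

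Of the other lists, none of 9 genes of G2/M and M/G1 transcription was called in RNA of Middle or Aged against Young cells, with a median of -1.44 in Middle cells. Of 21 subunits of SCF and APC/C, the ubiquitin ligases that destroy cyclins and their inhibitors, 0 were called in Middle cells and 1 of 20 tested in Aged cells, APC11, which fell by 1.58 (edgeR adjusted p = 0.049), a share near the 4.93% of all genes. PHO85, the second cyclin-dependent kinase of yeast, and 10 of its cyclins gave 1 call, PCL7, a cyclin of glycogen metabolism that rose in Aged against Young cells by a log2 fold change of 1.75 (edgeR adjusted p = 0.018). This is 1 of 11 tested, a share near the 8.02% of all genes called higher. None of 9 kinases and cyclins of the transcription machinery was called against Young cells.

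Markers of other cells and states were measured in the same libraries. RNA of 10 genes expressed in daughter cells or at their separation summed to 1705 and 1654 CPM in Aged and 1304 and 747 CPM in Middle libraries, against 1176 and 543 CPM in Young libraries. None was at 0 in any RNA library, and 3 rose in Aged against Young cells (edgeR, against 8.02% of all genes), DSE1 with a log2 fold change of 1.99 (edgeR adjusted p = 0.0035), AMN1, an inhibitor of mitotic exit, with 2.06 (adjusted p = 0.010), and CTS1, the chitinase of cell separation, with 1.57 (adjusted p = 0.028). In Aged against Middle cells, where CLB1 was called, 2 of the 10 rose (edgeR, against 4.76%), AMN1 with a log2 fold change of 2.31 (adjusted p = 0.0075) and DSE4, a glucanase of cell separation named here after its values were seen, with 1.69 (adjusted p = 0.019), and the median was 0.81. Several of these genes are themselves expressed at the M/G1 transition. Their part in the differences of the cyclins was not tested.
RNA of 10 sporulation genes summed to 123 and 161 CPM in Aged and 234 and 137 CPM in Middle libraries, against 328 and 192 CPM in Young libraries, with SPO13 at 0 in Aged library 1 and SPO13, SPS1 and SPS4 at 0 in Middle library 1. Of the 10 genes, 6 were tested in RNA of Middle and 7 of Aged against Young cells, and none was called. Nor was any of the 4 tested in Aged against Middle cells. In Middle footprints only IME1, the inducer of meiosis, was tested, and it was called higher, against 114 of 4167 genes. It had 15 and 48 footprint counts in Middle against 6 and 14 in Young libraries (log2 fold change 2.07, edgeR adjusted p = 0.027). Only in Middle cells did both of its libraries reach the filter on low counts. Whether cells in this state contributed to the cyclin levels was not tested.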

How the data were processed

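RNA-Seq and ribosome profiling were analyzed in 11 libraries. The deposited files hold read counts per coding sequence, which the authors made by trimming with Fastp, discarding reads on non-coding RNA, aligning to S288C (R64) with STAR 2.7.0a and leaving out the 5 codons at each end of a gene. Base calls came from CASAVA 1.8. Strand use and multi-mapping are not given in the sources used here. Counts were tested in R 4.3.3 with edgeR 4.0.16 (filterByExpr, TMM, quasi-likelihood test, two-sided) and DESeq2 1.42.0, with p-values adjusted by Benjamini and Hochberg over all genes tested and a threshold of 0.05. Each test was first tested on simulated counts with known changes. Of 200 changes of 4-fold set in each, the RNA tests recovered 146 to 176. Footprint tests recovered 110 in Middle and 81 in Aged cells, and those of translational efficiency 34 and 25. The members and gene lists were chosen with earlier results of these data known. All members are named, and listed genes are named where called in RNA or in Middle footprints against Young cells, up to 4 per list by adjusted p. Footprints and RNA of the same number were taken to share a lysate, and their deviations from group means correlated at 0.469 in Young and 0.320 in Middle cells over 5574 genes. Alternatives were other scalings and filters, DESeq2, a fit of all ages, replicate blocks and leaving out each library. Sequences were read from the RefSeq genome (R64).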

Additional observations from a re-analysis of the deposited data

Results flagged for a closer look

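The fold changes of CLB1 RNA against Young cells had opposite signs in Middle and Aged cells. The log2 fold change was -1.54 in Middle (edgeR adjusted p = 0.12) and 0.46 in Aged against Young cells (adjusted p = 0.51), neither past the threshold, and the direct comparison of Aged with Middle cells gave 2.00 with an SE of 0.49 (edgeR adjusted p = 0.043). Both Aged libraries, at 39.8 and 50.1 CPM, were above both Middle libraries, at 7.15 and 13.5 CPM. In Aged against Middle cells only the Aged libraries both reached the filter on low counts, so a rise was the direction open. Middle library 1 rests on 3 counts, and 3 of the 4 fits with a library left out did not pass the threshold.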

How the results depend on the processing

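Member calls were few and near the threshold, and with 2 libraries per age 1 library decided several of them. In RNA of Middle against Young cells the count of members called was 0, and 1 in a joint fit of 3 ages. In RNA of Aged against Young cells it was 0, and 1 in the joint fit and with replicate number as a block (CLB4, log2 fold change -1.57, edgeR adjusted p = 0.021). In Aged against Middle cells it was 1, 0 with at least 10 counts in every library, where CLB1 could not be tested, 0 with DESeq2, 2 with the replicate block (CLB2 at 1.85, adjusted p = 0.0089) and 0 to 2 with a library left out. In footprints of Middle against Young cells it was 0, 1 with the replicate block (CLN3 at -1.42, adjusted p = 0.022) and 0 to 1 with a library left out, and in footprints of Aged against Young cells 0 to 1. The cause was not tested. The block is not established, since the correlations of same-numbered libraries were 0.219, 0.0435 and 0.350 between RNA groups and 0.123 in footprints, and it changed no other member call. The Aged footprint library has no number in the labels and was paired in an alternative chosen after seeing the data. Taken as number 1, with the block edgeR called 0 members in footprints or translational efficiency of Aged cells, with CLN3 at -0.88 (adjusted p = 0.30) in footprints, and over all genes 374 higher and 374 lower in footprints and 13 and 39 in translational efficiency.

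Uncalled values changed sign in some settings. With library totals CLN3 was at 0.0393 in Aged against Middle RNA, CLB4 at 0.0900 in translational efficiency of Middle and CLB1 at -0.0643 in that of Aged cells, and with the replicate block CLN3 was at 0.0039 in Aged against Middle RNA. With a library left out, RNA of Middle against Young cells ranged from -0.81 to 0.67 for CLN3 and from -0.43 to 0.15 for CDC28. RNA of Aged against Young cells ranged from -1.05 to 0.93 for CLN1, -0.87 to 0.0815 for CLB3, -0.88 to 0.57 for CLN3 and -0.12 to 0.48 for CDC28. RNA of Aged against Middle cells ranged from -0.56 to 0.43 for CLN3, -0.24 to 0.0591 for CLB4, -0.26 to 1.67 for CLN1 and -0.76 to 0.22 for CLB3. Translational efficiency ranged from -0.85 to 0.0300 for CLN1 and -4.71 to 2.24 for CLB2 in Middle cells. In Aged cells it ranged from -0.12 to 0.26 for CLB1 and -0.0350 to 6.41 for CLN2. CLB2 had 0 and 5 footprint counts in Middle and CLN2 0 and 4 in Young libraries, so their ranges rest on few counts. Medians of the CLB2 cluster ranged from -0.88 to 0.31 in footprints and -0.0666 to 0.69 in translational efficiency of Aged cells. The CLB2 cluster genes called numbered 4 in RNA of Middle against Young cells, 4 in RNA of Aged against Middle cells, 1 in RNA of Aged against Young cells, 5 in footprints of Middle cells and 0 in footprints of Aged cells, and across the other settings 1 to 10, 0 to 9, 0 to 2, 0 to 7 and 0 to 1 in that order.

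Over all genes, 123 were higher and 50 lower in RNA of Middle cells, against 74 to 337 and 31 to 204 in the alternatives that keep all libraries. For RNA of Aged against Middle cells 270 and 170 compare with 231 to 784 and 144 to 634, for RNA of Aged against Young cells 473 and 291 with 416 to 661 and 228 to 466, and for footprints of Aged cells 222 and 188 with 126 to 374 and 133 to 374. Footprints of Middle cells gave 114 higher and 173 lower, 129 to 281 and 170 to 400 in these alternatives, and 209 and 178 with library totals, which moved the median of all genes to 0.18. Library totals also moved that median to 0.08 in translational efficiency of Middle cells and to -0.15 in that of Aged cells. With a library left out, RNA of Middle against Young cells gave 161 to 407 higher and 58 to 349 lower (407 and 349 without Young library 2), RNA of Aged against Middle cells 97 to 323 and 23 to 215 (97 higher without Middle library 2, 23 lower without Aged library 2), and RNA of Aged against Young cells 0 to 409 and 0 to 226. The counts of 0 came without Young library 2 in edgeR, where 1472 genes had an unadjusted p under 0.05, and without Young library 1 they were 234 and 87. Footprints gave 35 to 381 and 11 to 555 in Middle cells, the lowest without Middle library 2 and the highest without Young library 2, and 181 to 320 and 200 to 388 in Aged cells, where 388 came without Young library 2.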
